A study of Homo sapiens with 9 samples.

Results

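The 46 genes described here make and copy DNA: the transcription factors E2F1 and E2F2 that drive them, 6 origin licensing genes, 6 subunits of the MCM2-7 helicase, 7 genes of helicase activation, 6 DNA polymerase and primase genes, 8 genes of the sliding clamp, its loader and RPA, 2 genes of Okazaki fragment maturation, 4 genes of nucleotide synthesis and 5 genes of the fork checkpoint and of chromatin behind the fork. They were taken by symbol from the 17529 genes of the expression table, and all 46 were found and passed the filter on low counts, which left 13129 tested genes. RNA was sequenced from cells labelled NCI-H69, an established line of small cell lung cancer, 48 hours after transfection, in 3 groups of 3 libraries that the labels call biological replicates. The si_CSNK2B cells received an siRNA against CSNK2B, which encodes the regulatory (beta) subunit of the CK2 kinase, the si_P300 cells an siRNA against P300, the acetyltransferase encoded by EP300, and the NC cells a negative control siRNA. All 3 groups were therefore transfected cells of 1 line, an untransfected group was not analysed here, and nothing in the labels says how many different siRNAs were used per target.

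Before S phase, the origin recognition complex, CDC6 and CDT1 load the MCM2-7 helicase onto replication origins, and geminin, the product of GMNN, blocks CDT1 once S phase has begun. The kinase CDC7, CDC45 and the GINS complex then switch the helicase on. DNA polymerase alpha with its primase starts each strand, polymerase epsilon extends the leading strand, polymerase delta the lagging strand, and the clamp PCNA, placed by the RFC loader, holds them on DNA. E2F factors switch most of these genes on as cells enter S phase, and the retinoblastoma protein RB1, which is commonly lost in small cell lung cancer, holds E2F back.

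Levels are read counts per M after TMM scaling (CPM), and log2 fold changes with their SE come from 1 edgeR quasi-likelihood fit over all 9 libraries. A gene was called, and is said to have risen or fallen, where p after Benjamini-Hochberg adjustment over the 13129 tested genes was under 0.05. Total counts were 13.1 to 17.0 M in si_CSNK2B, 14.3 to 17.5 M in si_P300 and 17.7 to 18.3 M in NC. The targeted transcripts did not pass the test in either knockdown. CSNK2B read 139 to 168 CPM in si_CSNK2B, 148 to 163 CPM in si_P300 and 168 to 193 CPM in NC (edgeR adjusted p = 0.0732 in si_CSNK2B and 0.137 in si_P300). EP300 read 32.4 to 40.6 CPM in si_CSNK2B, 32.9 to 40.1 CPM in si_P300 and 41.8 to 50.8 CPM in NC (edgeR adjusted p = 0.119 in si_CSNK2B and 0.101 in si_P300). The groups are named by their labels throughout. Defining markers of neuroendocrine cells, the cell type of the labelled line, were near 0: of 12 markers 9 were measured, all 9 under 1 CPM, and their summed level was 1.26 to 1.68 CPM in si_CSNK2B, 1.17 to 1.47 CPM in si_P300 and 0.951 to 1.48 CPM in NC. Of 10 epithelial markers, 9 were above 10 CPM in every group. The 10 include the intestinal genes CDX2, CDH17, VIL1, LGALS4 and GPA33. These markers do not bear out the labelled cell type, and the identity of the cells was not tested. RB1 was measured at 63.9 ± 0.845 CPM in si_CSNK2B, 68.4 ± 5.14 CPM in si_P300 and 73.6 ± 3.81 CPM in NC (SD, n = 3 each). In bulk RNA, fewer cells in S phase and less of these transcripts per cell cannot be told apart.

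In si_P300 against NC, 17 of the 46 genes changed, 16 up and 1 down. The genes that rose came from every role named above, but no gene of the RFC loader was among them. In the MCM2-7 helicase 1 of 6 genes rose (16.7%) and in helicase activation 1 of 7 (14.3%), beside 13.6% of all tested genes. With so few genes these counts are not a result about either step. The 16 were E2F2, ORC1, GMNN, MCM4, CDC7, POLA2, POLD1, POLE, POLE2, PCNA, RPA1, FEN1, LIG1, RRM1, CLSPN and UHRF1. CDC6 fell. The share that changed, 37.0%, stands beside 28.3% of all tested genes, and the share that rose, 34.8%, beside 13.6% of all tested genes. The median log2 fold change of the 46 genes was 0.27, against 0.04 over all tested genes, and 38 of the 46 estimates were above 0, against 53.8% of all tested genes. At an unadjusted p under 0.05 stood 22 of the 46 genes, against 40.4% of all tested genes.

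In si_CSNK2B against NC, 11 of the 46 genes changed, 5 up and 6 down. GMNN, POLD1, POLE, LIG1 and CLSPN rose, and CDC6, MCM2, MCM6, POLA1, RFC2 and RFC4 fell. The share that changed, 23.9%, was below the 34.0% of all tested genes, of which 16.2% rose and 17.8% fell. The median log2 fold change was 0.02, against 0.04 over all tested genes, with 23 of the 46 estimates above 0, against 53.1% of all tested genes. At an unadjusted p under 0.05 stood 21 of the 46 genes, against 45.0% of all tested genes. The comparisons of si_CSNK2B and of si_P300 with NC share the 3 NC libraries, so their values are not independent of each other. The remaining 24 genes passed the test in neither comparison. Among genes that did not pass, estimates ran from -0.51 for CDC45 to 0.53 for POLE2 in si_CSNK2B, and from -0.29 for RFC4 to 0.46 for GINS2 in si_P300. Libraries that do not overlap those of NC were common. In si_CSNK2B they lay above NC for 10 and below for 11 of the 46 genes, against 26.2% and 26.8% of all tested genes. In si_P300 they lay above NC for 25 and below for 2, against 22.8% and 23.8%.

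**Figure D1:**
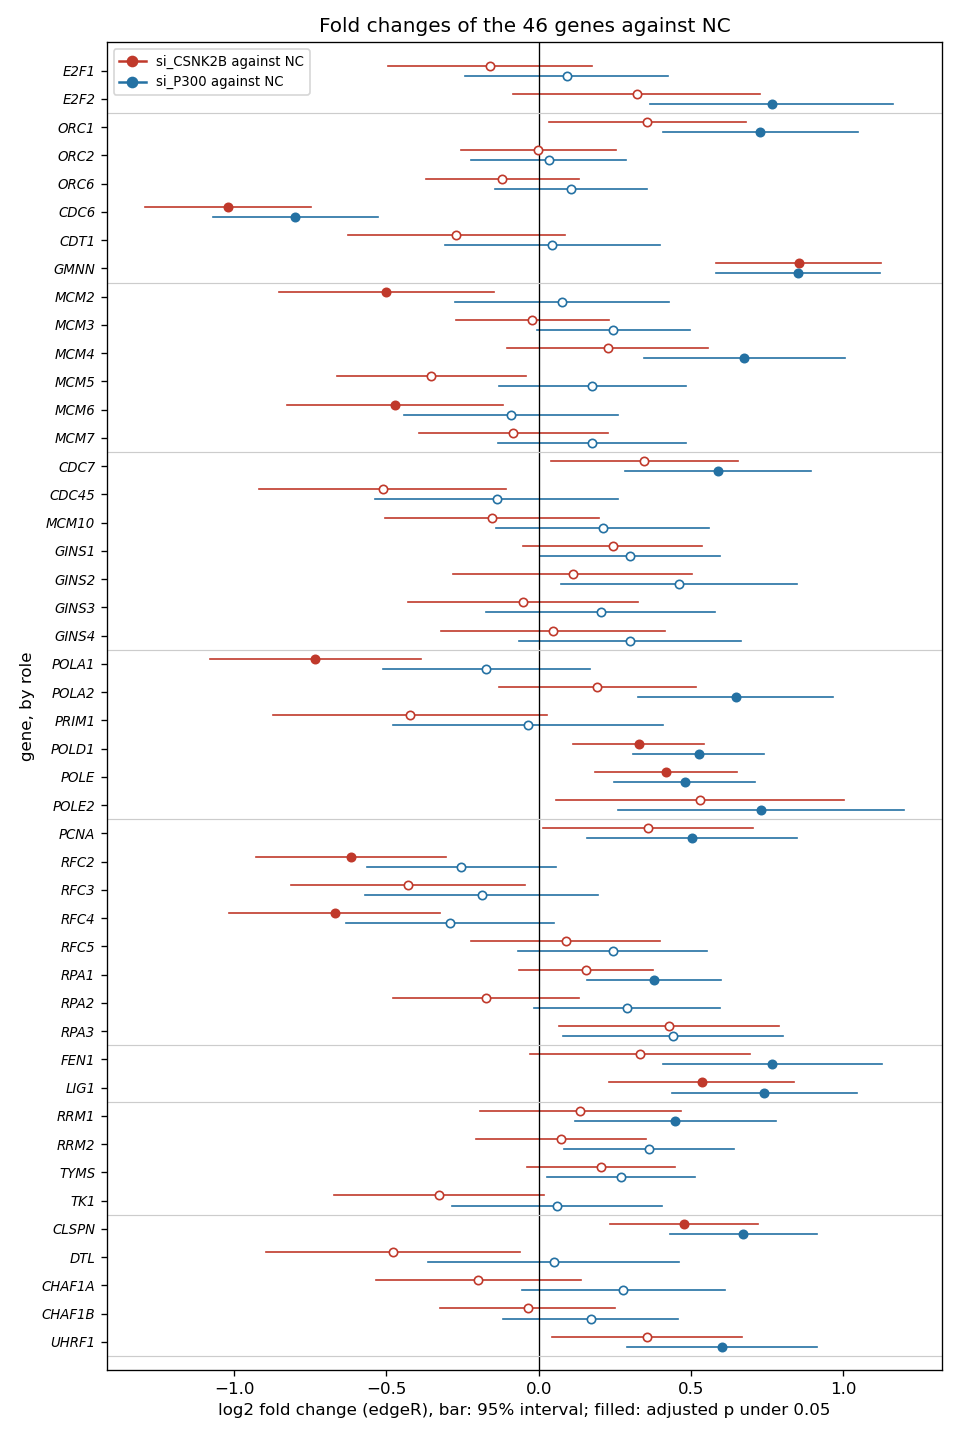
Log2 fold change (edgeR) of each of the 46 genes in si_CSNK2B against NC (red) and si_P300 against NC (blue), grouped by role, with 95% intervals as bars and filled points for an adjusted p under 0.05. CDC6 is the one gene with filled points below 0 in both comparisons, at -1.02 in si_CSNK2B and -0.80 in si_P300, and most blue points lie right of the red point of the same gene.

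The scaling mattered for how many genes counted as risen. When only library sizes and no TMM factors were used, the median of all tested genes moved up by 0.12 in si_CSNK2B and by 0.11 in si_P300, and the members moved with it, to medians of 0.15 in si_CSNK2B and 0.39 in si_P300. Called members then numbered 15 up and 4 down in si_CSNK2B, beside 38.2% of all tested genes, and 23 up and 1 down in si_P300, beside 31.9%. Of all called genes, 66.0% then rose in si_CSNK2B and 66.0% in si_P300, against 47.6% in si_CSNK2B and 48.1% in si_P300 with TMM. The fall of CDC6 in both comparisons and of POLA1, RFC2 and RFC4 in si_CSNK2B kept its sign and its call under that scaling.

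The libraries of the si_CSNK2B group were spread widely over these genes. The median over the 46 genes of log2 CPM minus the NC mean was 0.27, -0.02 and -0.20 in si_CSNK2B replicates 1 to 3, 0.37, 0.26 and 0.21 in si_P300 replicates 1 to 3, and 0.01, -0.05 and 0.03 in NC replicates 1 to 3. All 3 si_P300 libraries thus lay above all 3 NC libraries, while the si_CSNK2B libraries lay on both sides of them. Of the 46 genes, si_CSNK2B replicate 1 was the highest library of its group for 42 and si_CSNK2B replicate 3 the lowest for 43, against 34.0% and 35.3% of all tested genes. A common shift was also present in si_P300. There replicate 1 was the highest library for 40 of the 46 genes, against 37.6% of all tested genes. Replicate 2 of si_P300 was the lowest for 26, against 34.5%. The median coefficient of variation between libraries was 19.3% in si_CSNK2B, 9.40% in si_P300 and 4.85% in NC, while 9632 genes in the same range of counts had 10.7% in si_CSNK2B, 11.7% in si_P300 and 6.20% in NC. Without si_CSNK2B replicate 1 the calls in si_CSNK2B were 4 up and 11 down of the 46, beside 30.3% of all genes tested in that fit, with MCM5, CDC45, PRIM1, RFC3 and DTL added to those that fell. Without si_CSNK2B replicate 3 they were 10 up and 4 down of the 46, beside 26.3% of all genes tested, with ORC1, PCNA, RPA3, FEN1 and UHRF1 added to those that rose and without MCM2 and MCM6.

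Other measures also differed between the libraries. The total count was 17.0, 13.1 and 14.5 M in si_CSNK2B replicates 1 to 3, 17.5, 14.3 and 16.2 M in si_P300 replicates 1 to 3, and 17.8, 17.7 and 18.3 M in NC replicates 1 to 3. The MTRNR2L genes, a family of nuclear genes whose sequence resembles mitochondrial large ribosomal RNA, took 2.86%, 4.32% and 4.73% of the counts in si_CSNK2B replicates 1 to 3, 2.65%, 3.31% and 3.27% in si_P300 replicates 1 to 3, and 2.49%, 3.06% and 2.04% in NC replicates 1 to 3. In each group the library with the highest median of the 46 genes had the lowest MTRNR2L share and the highest total count, while the library with the lowest median did not have the lowest total count in si_CSNK2B or si_P300. The median deviation of 22 mitosis genes was 0.79, 0.31 and 0.17 in si_CSNK2B replicates 1 to 3, 0.60, 0.36 and 0.66 in si_P300 replicates 1 to 3, and 0.01, -0.01 and -0.02 in NC replicates 1 to 3. It was highest in the library with the highest median of the 46 genes in si_CSNK2B, but not in si_P300 or NC. Among genes with a count above 0, whole counts made up 30.4%, 16.9% and 16.3% in si_CSNK2B replicates 1 to 3. They made up 16.9%, 23.0% and 21.5% in si_P300 replicates 1 to 3, and 31.7%, 31.0% and 30.8% in NC replicates 1 to 3. In this share si_CSNK2B replicate 1 was near the NC libraries, and the other knockdown libraries were lower. The part of depth, of MTRNR2L, of the share of whole counts or of the cell cycle stage in these values was not tested.

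**Figure D2:**
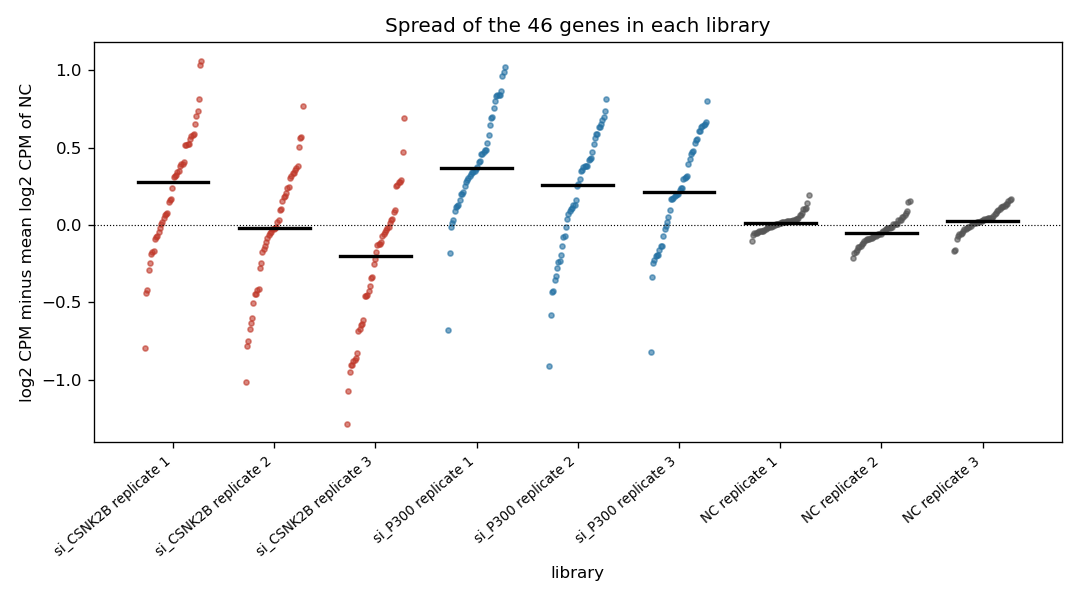
Each point is 1 of the 46 genes in 1 library, as log2 CPM minus the mean log2 CPM of NC, and the black bar is the median of the library (9 libraries, si_CSNK2B left, si_P300 middle, NC right). The bars of si_CSNK2B replicates 1 to 3 sit at 0.27, -0.02 and -0.20, those of si_P300 at 0.37, 0.26 and 0.21, and those of NC between -0.05 and 0.03.

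**Figure D3:**
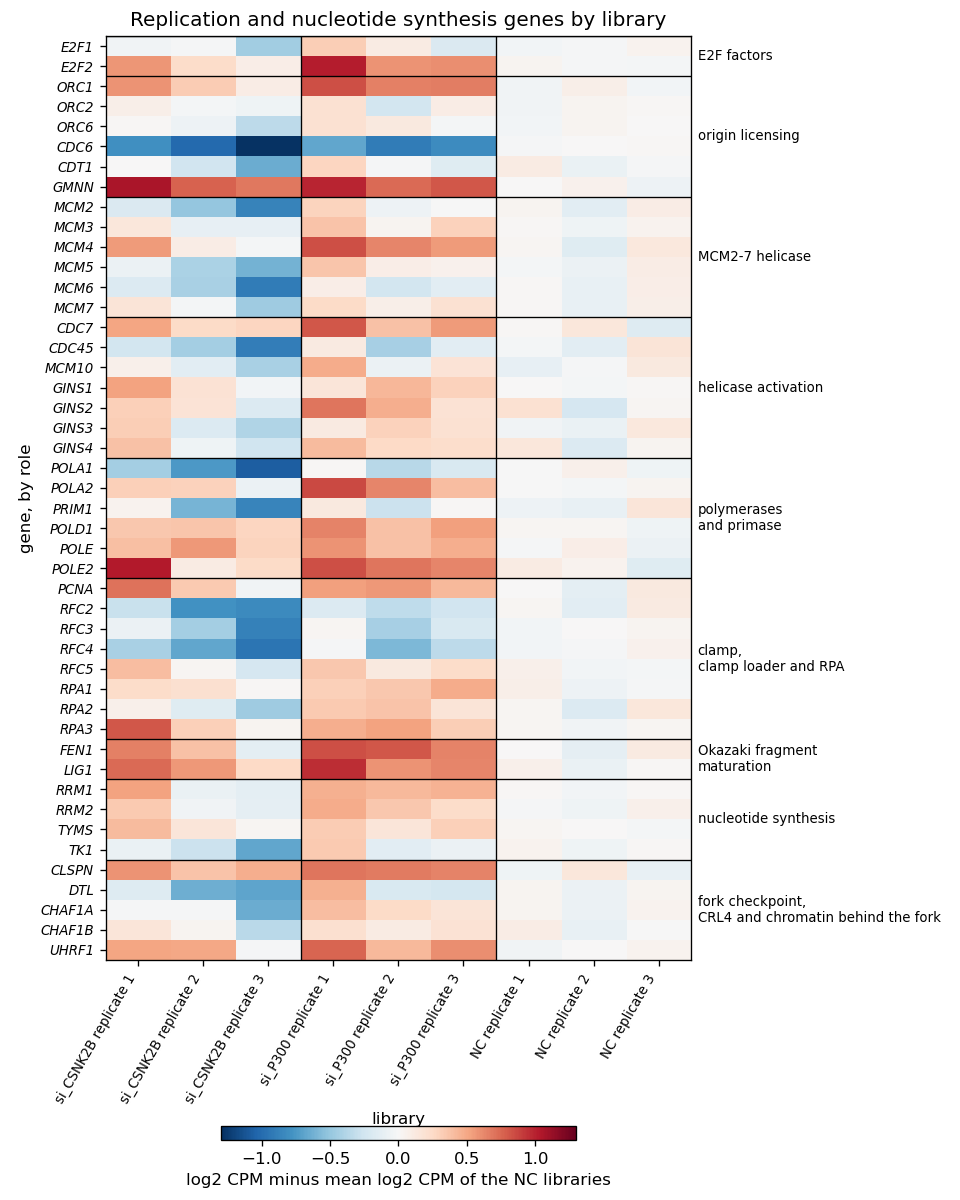
Log2 CPM of each of the 46 genes in each library minus the mean log2 CPM of the NC libraries, with red above and blue below that mean, genes in rows by role and libraries in columns. The rows of CDC6 and GMNN keep 1 colour over all 6 knockdown libraries, as do others such as POLD1, POLE, LIG1, CLSPN and RFC2. Many other rows turn from red in si_CSNK2B replicate 1 to blue in si_CSNK2B replicate 3.

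Origin licensing held the largest differences among the 46 genes, and they ran in opposite directions. CDC6 (gene ID 990, GRCh38 chr17:40287633-40304657, plus strand), the ATPase that loads the MCM2-7 helicase, read 62.6, 53.9 and 44.5 CPM in si_CSNK2B, 68.0, 57.9 and 61.6 CPM in si_P300, and 108, 109 and 110 CPM in NC. Every knockdown library lay below every NC library. CDC6 fell by 1.02 ± 0.125 on the log2 scale in si_CSNK2B (edgeR adjusted p = 0.000117) and by 0.80 ± 0.124 in si_P300 (edgeR adjusted p = 0.000803), which is 2.03-fold lower in si_CSNK2B and 1.74-fold lower in si_P300. GMNN (gene ID 51053, chr6:24774931-24786099, plus strand), which encodes geminin, the inhibitor of CDT1, read 48.8, 39.8 and 37.6 CPM in si_CSNK2B, 46.4, 38.9 and 40.7 CPM in si_P300, and 23.4, 24.2 and 22.3 CPM in NC. Its knockdown libraries all lay above its NC libraries. GMNN rose by 0.85 ± 0.124 in si_CSNK2B (edgeR adjusted p = 0.000367) and by 0.85 ± 0.124 in si_P300 (edgeR adjusted p = 0.000514), 1.81-fold in si_CSNK2B and 1.80-fold in si_P300.

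ORC1, the ATPase subunit of the origin recognition complex that comes and goes with the cell cycle, read 16.3, 13.7 and 11.6 CPM in si_CSNK2B, 19.5, 17.1 and 17.2 CPM in si_P300, and 10.5, 11.4 and 10.5 CPM in NC. The knockdown libraries did not overlap those of NC, narrowly so in si_CSNK2B. ORC1 rose by 0.73 ± 0.147 in si_P300 (edgeR adjusted p = 0.00375), and its difference of 0.36 ± 0.149 in si_CSNK2B did not pass (edgeR adjusted p = 0.0833). ORC2 and ORC6, other subunits of the complex, differed by 0.00 and -0.12 in si_CSNK2B and by 0.03 and 0.11 in si_P300. CDT1, the partner of CDC6 in loading and the target of geminin, averaged 30.7 ± 6.79 CPM in si_CSNK2B, 38.2 ± 6.01 CPM in si_P300 and 37.1 ± 2.54 CPM in NC (SD, n = 3 each). Its difference was -0.27 in si_CSNK2B (95% interval -0.63 to 0.09) and 0.05 in si_P300 (-0.31 to 0.40), and it passed in neither. Of the 6 licensing genes, 1 rose and 1 fell in si_CSNK2B, and 2 rose and 1 fell in si_P300. Of all tested genes, 16.2% rose and 17.8% fell in si_CSNK2B, and 13.6% rose and 14.7% fell in si_P300. With 6 genes these counts are not a result about licensing as a step.

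The promoters of the 6 genes called the same way in both comparisons are shown because E2F binding is the best known control of this gene group. Each is a window of 300 bases from RefSeq on GRCh38.p14, from 250 bases before the annotated start of the transcript to 50 after it, read 5′ to 3′ on the strand of the gene. Capitals mark matches on either strand to the E2F motif TTTNNCGN, in which each N had to be C or G.
CDC6, chr17:40287629-40287928, plus strand: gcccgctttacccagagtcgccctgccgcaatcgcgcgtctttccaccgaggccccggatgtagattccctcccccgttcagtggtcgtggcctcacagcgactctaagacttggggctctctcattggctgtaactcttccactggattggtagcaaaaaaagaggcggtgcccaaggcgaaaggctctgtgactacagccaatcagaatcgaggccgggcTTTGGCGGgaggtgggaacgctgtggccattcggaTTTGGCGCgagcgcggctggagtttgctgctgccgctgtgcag
GMNN, chr6:24775163-24775462, plus strand: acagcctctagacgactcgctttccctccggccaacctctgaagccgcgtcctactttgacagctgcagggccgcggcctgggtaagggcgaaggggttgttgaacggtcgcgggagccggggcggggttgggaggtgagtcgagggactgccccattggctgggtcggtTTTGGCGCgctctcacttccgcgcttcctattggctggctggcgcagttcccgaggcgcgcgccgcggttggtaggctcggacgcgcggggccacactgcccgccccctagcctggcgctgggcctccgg
POLD1, chr19:50384073-50384372, plus strand: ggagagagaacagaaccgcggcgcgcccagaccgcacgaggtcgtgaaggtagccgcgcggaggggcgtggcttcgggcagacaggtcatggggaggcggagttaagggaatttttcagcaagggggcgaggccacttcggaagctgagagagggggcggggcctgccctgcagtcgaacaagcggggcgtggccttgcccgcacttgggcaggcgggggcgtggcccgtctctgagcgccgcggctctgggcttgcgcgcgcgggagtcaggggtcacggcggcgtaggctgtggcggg
POLE, chr12:132687293-132687592, minus strand: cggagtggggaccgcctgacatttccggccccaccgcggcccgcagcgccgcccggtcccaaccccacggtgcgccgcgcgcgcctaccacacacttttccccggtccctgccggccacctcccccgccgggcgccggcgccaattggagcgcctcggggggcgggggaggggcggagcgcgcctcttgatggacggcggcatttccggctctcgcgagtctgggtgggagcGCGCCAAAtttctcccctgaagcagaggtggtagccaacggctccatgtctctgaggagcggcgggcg
LIG1, chr19:48170295-48170594, minus strand: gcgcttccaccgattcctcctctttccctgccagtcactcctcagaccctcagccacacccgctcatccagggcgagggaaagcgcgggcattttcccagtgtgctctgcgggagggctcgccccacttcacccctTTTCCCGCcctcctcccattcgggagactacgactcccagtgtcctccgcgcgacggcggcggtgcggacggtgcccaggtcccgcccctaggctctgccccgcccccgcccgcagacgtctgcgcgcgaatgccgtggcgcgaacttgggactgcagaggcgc
CLSPN, chr1:35769929-35770228, minus strand: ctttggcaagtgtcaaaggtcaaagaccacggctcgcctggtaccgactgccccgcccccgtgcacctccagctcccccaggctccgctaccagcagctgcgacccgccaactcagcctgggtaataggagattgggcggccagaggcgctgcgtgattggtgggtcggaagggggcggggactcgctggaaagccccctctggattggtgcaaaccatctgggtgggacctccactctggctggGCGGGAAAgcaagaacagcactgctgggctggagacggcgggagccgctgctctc

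The CDC6 window, the promoter of the gene that fell, holds 2 matches, which begin at -28 and at 7 with the start as position 0. Those of GMNN, POLE, LIG1 and CLSPN, which rose, hold 1 match each, at -80, -18, -114 and -5, and that of POLD1, which also rose, holds 0. GMNN and POLD1 have 2 windows each in the table, and the window printed is the one with a match where there was one. Windows were found for 41 of the 46 genes, all but MCM4, MCM5, GINS4, RPA2 and RPA3. A match was present in 27 of these 41 genes (65.9%) and in 29 of their 53 windows (54.7%), against 6.19% of all 35116 windows and 8.10% of the 19712 windows of genes in the expression table. By call, matches were held by 4 of 5 genes that rose in both comparisons, the 1 that fell in both, 3 of 5 that fell in si_CSNK2B alone, 6 of 10 that rose in si_P300 alone and 13 of 20 that passed in neither. Genes with and without a match thus stood in every one of these classes but that of CDC6. The CCAAT box, searched on both strands, was present in 26 of the 41 genes (63.4%) and in 60.4% of their windows, against 34.6% of all windows. These are matches of letters and not measured binding sites.

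Of the 2 E2F factors, E2F2 rose in si_P300. It read 9.21, 7.28 and 6.53 CPM in si_CSNK2B, 12.6, 9.30 and 9.42 CPM in si_P300, and 6.30, 6.10 and 6.06 CPM in NC. All 6 knockdown libraries lay above NC, those of si_P300 by more. The difference of E2F2 was 0.76 ± 0.183 in si_P300 (edgeR adjusted p = 0.00933) and 0.32 ± 0.186 in si_CSNK2B (edgeR adjusted p = 0.199). E2F1 averaged 22.0 ± 3.53 CPM in si_CSNK2B, 26.2 ± 4.61 CPM in si_P300 and 24.6 ± 0.740 CPM in NC (SD, n = 3 each), with differences of -0.16 in si_CSNK2B and 0.09 in si_P300 that did not pass.

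Of the 6 subunits of the MCM2-7 helicase, which form a ring in equal numbers, MCM2 and MCM6 fell in si_CSNK2B and MCM4 rose in si_P300. MCM4 read 101, 73.2 and 67.6 CPM in si_CSNK2B, 123, 106 and 101 CPM in si_P300, and 69.7, 61.4 and 75.5 CPM in NC. All 3 si_P300 libraries lay above NC, while those of si_CSNK2B overlapped NC. MCM4 rose by 0.67 ± 0.151 in si_P300 (edgeR adjusted p = 0.00677), and its difference in si_CSNK2B was 0.23 ± 0.151 (edgeR adjusted p = 0.266). MCM2 read 59.4, 47.7 and 37.0 CPM in si_CSNK2B, 82.8, 64.6 and 67.4 CPM in si_P300, and 69.7, 61.5 and 72.7 CPM in NC. MCM6 read 73.1, 61.5 and 44.0 CPM in si_CSNK2B, 87.7, 69.9 and 75.2 CPM in si_P300, and 83.2, 76.9 and 87.9 CPM in NC. For MCM2 and MCM6 every si_CSNK2B library lay below every NC library, si_CSNK2B replicate 1 by the least, and the si_P300 libraries overlapped NC. MCM2 fell by 0.50 ± 0.162 (edgeR adjusted p = 0.0327) and MCM6 by 0.47 ± 0.162 (edgeR adjusted p = 0.0414) in si_CSNK2B. Both calls were lost with library sizes alone, in the fits on FPKM, and without NC replicate 1, NC replicate 3, si_CSNK2B replicate 2 or si_CSNK2B replicate 3, and that of MCM6 also without NC replicate 2. Their adjusted p reached 0.112 for MCM2 and 0.131 for MCM6 over all 17 alternatives. MCM5 differed by -0.35 in si_CSNK2B (edgeR adjusted p = 0.0748) and by 0.18 in si_P300, MCM3 by -0.02 in si_CSNK2B and 0.25 in si_P300, and MCM7 by -0.08 in si_CSNK2B and 0.17 in si_P300, none of which passed. Exons of MCM2 share positions with TPRA1 and those of MCM7 with AP4M1, each on the opposite strand, so reads there cannot be told apart unless counting used the strand.

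On the scale of length-corrected FPKM the helicase subunits also differed in level. In NC, MCM7 stood at 52.2 ± 2.91 FPKM, MCM3 at 39.5 ± 1.26 FPKM, MCM6 at 21.1 ± 1.24 FPKM, MCM2 at 19.0 ± 1.48 FPKM, MCM4 at 16.2 ± 1.55 FPKM and MCM5 at 12.4 ± 0.776 FPKM (SD, n = 3). MCM6, MCM2 and MCM4 followed each other within about the sum of the SDs of neighbours, and the other steps were wider. In si_CSNK2B the order of the means was MCM7 at 53.5 ± 10.1 FPKM, MCM3 at 42.0 ± 4.29 FPKM, MCM4 at 20.6 ± 4.03 FPKM, MCM6 at 16.5 ± 3.64 FPKM, MCM2 at 14.6 ± 3.03 FPKM and MCM5 at 10.3 ± 1.57 FPKM, with MCM4 first among the 4 lower subunits. All steps there but that from MCM3 to MCM4 were within the sum of the SDs of neighbours. The place of MCM4 among the lower subunits is therefore not settled. Over all 46 genes in NC, the highest levels were those of PCNA at 218 ± 17.0 FPKM, TYMS at 101 ± 2.62 FPKM and TK1 at 75.9 ± 2.48 FPKM, and the lowest those of E2F2 at 1.38 ± 0.0608 FPKM, CLSPN at 2.96 ± 0.390 FPKM and ORC1 at 3.35 ± 0.168 FPKM.

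Among the 7 genes of helicase activation, CDC7 rose in si_P300 and none passed in si_CSNK2B. CDC7, the catalytic subunit of the kinase that phosphorylates the loaded MCM2-7 ring, read 32.4, 26.9 and 27.5 CPM in si_CSNK2B, 39.7, 29.5 and 33.4 CPM in si_P300, and 22.9, 25.2 and 20.1 CPM in NC. All knockdown libraries lay above those of NC. The difference was 0.59 ± 0.140 in si_P300 (edgeR adjusted p = 0.00910, and 0.0517 without NC replicate 3) and 0.35 ± 0.141 in si_CSNK2B (edgeR adjusted p = 0.0757). CDC45, which joins MCM2-7 and GINS in the active helicase, averaged 16.8 ± 3.78 CPM in si_CSNK2B, 21.8 ± 4.19 CPM in si_P300 and 24.0 ± 2.62 CPM in NC (SD, n = 3 each). Its difference of -0.51 in si_CSNK2B lay just outside the threshold (edgeR adjusted p = 0.0506) and it was -0.14 in si_P300. The 4 GINS genes ran from -0.05 to 0.24 in si_CSNK2B and from 0.20 to 0.46 in si_P300, and MCM10, a firing factor, stood at -0.15 in si_CSNK2B and 0.21 in si_P300, without passing.

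Of the 6 polymerase and primase genes, POLD1, POLE and POLA1 passed in si_CSNK2B and POLD1, POLE, POLE2 and POLA2 in si_P300. POLD1 (chr19:50384204-50418016, plus strand), the catalytic subunit of polymerase delta, read 76.6, 77.0 and 72.7 CPM in si_CSNK2B, 94.3, 78.2 and 86.9 CPM in si_P300, and 61.0, 61.3 and 57.9 CPM in NC. POLE (chr12:132623753-132687365, minus strand), the catalytic subunit of polymerase epsilon, read 65.1, 73.2 and 60.3 CPM in si_CSNK2B, 73.9, 64.4 and 68.5 CPM in si_P300, and 49.0, 52.5 and 46.9 CPM in NC. For POLD1 and POLE every knockdown library lay above every NC library. That held for 26.2% of all tested genes in si_CSNK2B and 22.8% in si_P300. POLD1 rose by 0.33 ± 0.0985 in si_CSNK2B (edgeR adjusted p = 0.0234) and by 0.52 ± 0.0984 in si_P300 (edgeR adjusted p = 0.00248). POLE rose by 0.42 ± 0.107 in si_CSNK2B (edgeR adjusted p = 0.0105) and by 0.48 ± 0.107 in si_P300 (edgeR adjusted p = 0.00649). In si_CSNK2B the call of POLD1 was lost when any 1 of NC replicates 1, 2 and 3 or si_CSNK2B replicates 1 and 2 was left out, and that of POLE without NC replicate 3. The adjusted p then reached 0.0995 for POLD1 and 0.0575 for POLE. POLE2, an accessory subunit of polymerase epsilon, rose by 0.73 ± 0.215 in si_P300 (edgeR adjusted p = 0.0257), a call that leaving out any 1 NC library ended (adjusted p up to 0.103), and it differed by 0.53 ± 0.216 in si_CSNK2B (edgeR adjusted p = 0.0785).

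Polymerase alpha, the complex that starts each strand, had 1 subunit past the test in each comparison with NC. POLA1 (chrX:24693919-24996986, plus strand), the catalytic subunit, read 22.3, 17.9 and 14.3 CPM in si_CSNK2B, 30.5, 23.6 and 26.4 CPM in si_P300, and 30.1, 31.6 and 29.0 CPM in NC. Every si_CSNK2B library lay below all libraries of the other groups, and si_P300 overlapped NC. POLA1 fell by 0.73 ± 0.159 in si_CSNK2B (edgeR adjusted p = 0.00421), and its difference in si_P300 was -0.17 ± 0.156 (edgeR adjusted p = 0.434). POLA2, the accessory subunit, rose by 0.65 ± 0.146 in si_P300 (edgeR adjusted p = 0.00707) and differed by 0.19 ± 0.148 in si_CSNK2B (edgeR adjusted p = 0.333). Primase subunit PRIM1 stood at -0.42 ± 0.206 in si_CSNK2B and -0.04 ± 0.203 in si_P300, without passing. In all, 2 of these 6 genes rose and 1 fell in si_CSNK2B, and 4 rose in si_P300. Of all tested genes, 16.2% rose and 17.8% fell in si_CSNK2B, and 13.6% rose in si_P300. With 6 genes these counts are not a result about the step.

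**Figure D4:**
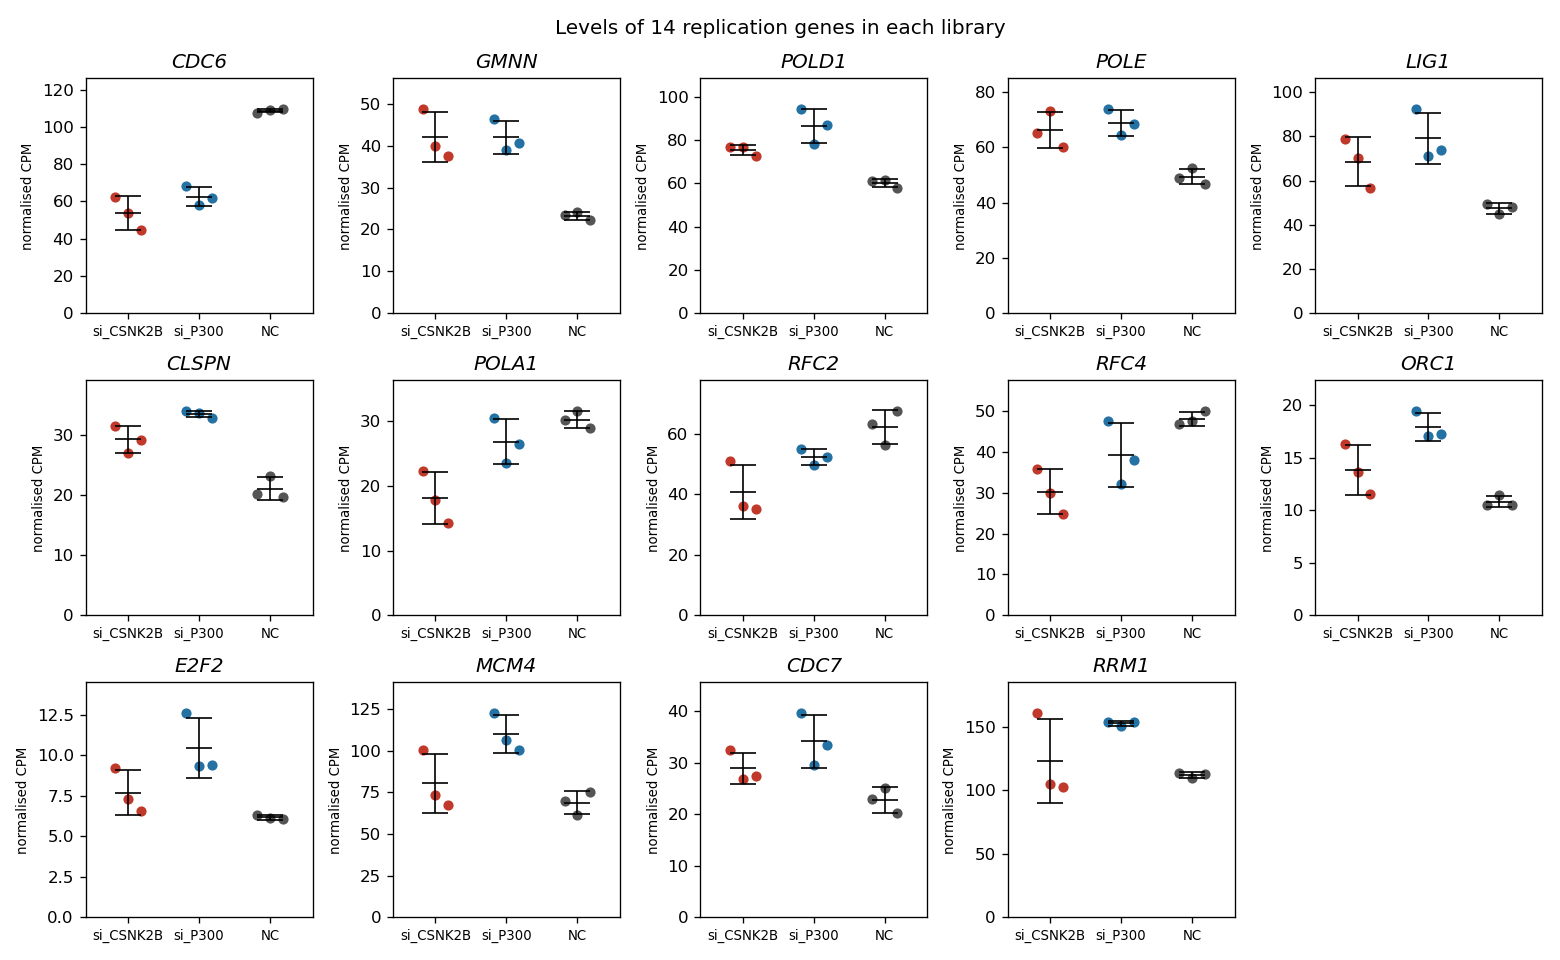
Normalised CPM of 14 of the genes in each library of si_CSNK2B, si_P300 and NC, with bars for mean ± SD (n = 3) and axes from 0. The 6 knockdown libraries lie below NC for CDC6, at 44.5 to 68.0 CPM against 108 to 110 CPM, and above NC for GMNN, POLD1, POLE, LIG1 and CLSPN, while for POLA1 and RFC4 the si_CSNK2B libraries lie below NC and those of si_P300 overlap it.

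Among the clamp and loader genes, PCNA passed in si_P300 alone, and RFC2 and RFC4 in si_CSNK2B alone. PCNA, the clamp, averaged 364 ± 93.1 CPM in si_CSNK2B, 402 ± 20.0 CPM in si_P300 and 283 ± 24.1 CPM in NC (SD, n = 3 each). It rose by 0.50 ± 0.158 in si_P300 (edgeR adjusted p = 0.0334), a call that leaving out any 1 NC library, si_P300 replicate 2 or si_P300 replicate 3 ended (adjusted p up to 0.134), and differed by 0.36 ± 0.158 in si_CSNK2B (edgeR adjusted p = 0.0982). RFC2 (chr7:74231499-74254458, minus strand), a small subunit of the loader RFC, read 50.8, 36.0 and 35.0 CPM in si_CSNK2B, 54.8, 49.5 and 52.3 CPM in si_P300, and 63.0, 56.4 and 67.4 CPM in NC. RFC4 (chr3:186789880-186807058, minus strand), another small subunit, read 35.9, 30.1 and 24.8 CPM in si_CSNK2B, 47.6, 32.2 and 38.1 CPM in si_P300, and 46.9, 47.5 and 50.1 CPM in NC. All si_CSNK2B libraries lay below all NC libraries for both subunits. The si_P300 libraries lay below NC for RFC2 and overlapped NC for RFC4. RFC2 fell by 0.62 ± 0.143 (edgeR adjusted p = 0.00632) and RFC4 by 0.67 ± 0.159 (edgeR adjusted p = 0.00710) in si_CSNK2B. In si_P300 RFC2 differed by -0.25 (edgeR adjusted p = 0.201) and RFC4 by -0.29 (edgeR adjusted p = 0.185). RFC3 stood at -0.43 in si_CSNK2B (edgeR adjusted p = 0.0793) and -0.19 in si_P300, and RFC5 at 0.09 in si_CSNK2B and 0.24 in si_P300. RFC4 shares exon positions with EIF4A2 on the opposite strand.

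RPA, the trimer that coats single-stranded DNA at the fork, had 1 subunit past the test. RPA1 rose by 0.38 ± 0.101 in si_P300, to 92.2 ± 5.76 CPM against 70.8 ± 3.44 CPM in NC (SD, n = 3 each, edgeR adjusted p = 0.0158). That call was lost without NC replicate 2, NC replicate 3 or si_P300 replicate 3 (adjusted p up to 0.0890). RPA1 differed by 0.16 in si_CSNK2B, RPA2 by -0.17 in si_CSNK2B and 0.29 in si_P300, and RPA3 by 0.43 in si_CSNK2B (edgeR adjusted p = 0.0659) and 0.44 in si_P300 (edgeR adjusted p = 0.0661).

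Both genes of Okazaki fragment maturation rose in si_P300, where 13.6% of all tested genes rose. LIG1 (chr19:48115445-48170603, minus strand), the ligase that seals the lagging strand, read 79.0, 70.2 and 56.7 CPM in si_CSNK2B, 92.4, 71.3 and 73.9 CPM in si_P300, and 49.6, 44.7 and 47.9 CPM in NC, with no overlap between knockdown and NC libraries. It rose by 0.53 ± 0.139 in si_CSNK2B (edgeR adjusted p = 0.0118, and 0.0541 without NC replicate 2) and by 0.74 ± 0.139 in si_P300 (edgeR adjusted p = 0.00249). FEN1, the nuclease that trims the flap ahead of LIG1, averaged 54.1 ± 14.2 CPM in si_CSNK2B, 73.2 ± 5.05 CPM in si_P300 and 43.0 ± 3.47 CPM in NC (SD, n = 3 each). It rose by 0.77 ± 0.165 in si_P300 (edgeR adjusted p = 0.00538) and differed by 0.33 ± 0.165 in si_CSNK2B (edgeR adjusted p = 0.138). FEN1 shares exon positions with TMEM258 and FADS2 and has a pseudogene named after it, so its level is uncertain to that extent.

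Of the 4 genes of nucleotide synthesis, RRM1, the large subunit of ribonucleotide reductase, rose in si_P300. It read 161, 105 and 102 CPM in si_CSNK2B, 154, 150 and 153 CPM in si_P300, and 113, 109 and 113 CPM in NC. The si_P300 libraries were close together and all above NC, while si_CSNK2B replicate 1 lay above every other library and si_CSNK2B replicates 2 and 3 below NC. The difference of RRM1 was 0.45 ± 0.151 in si_P300 (edgeR adjusted p = 0.0441) and 0.14 ± 0.151 in si_CSNK2B (edgeR adjusted p = 0.509). The call in si_P300 was the least stable of the 17, lost in 9 of 17 alternatives, among them leaving out any 1 of the 6 libraries compared (adjusted p of 0.0606 to 0.141). RRM2, the small subunit, differed by 0.36 in si_P300 (edgeR adjusted p = 0.0535) and 0.07 in si_CSNK2B. TYMS, thymidylate synthase, stood at 0.21 in si_CSNK2B and 0.27 in si_P300, and TK1, the thymidine salvage kinase, at -0.33 in si_CSNK2B and 0.06 in si_P300, without passing.

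At the fork checkpoint, CLSPN (chr1:35720218-35769967, minus strand), which encodes claspin, the adaptor that lets ATR activate CHK1, read 31.4, 27.0 and 29.1 CPM in si_CSNK2B, 33.9, 33.5 and 32.8 CPM in si_P300, and 20.2, 23.2 and 19.6 CPM in NC. All knockdown libraries lay above NC. CLSPN rose by 0.48 ± 0.111 in si_CSNK2B (edgeR adjusted p = 0.00646) and by 0.67 ± 0.111 in si_P300 (edgeR adjusted p = 0.00115). UHRF1, which reads hemimethylated DNA behind the fork, averaged 81.0 ± 15.9 CPM in si_CSNK2B, 96.0 ± 11.0 CPM in si_P300 and 63.3 ± 1.89 CPM in NC (SD, n = 3 each). It rose by 0.60 ± 0.143 in si_P300 (edgeR adjusted p = 0.00901) and differed by 0.36 ± 0.143 in si_CSNK2B (edgeR adjusted p = 0.0740). DTL, the CRL4 receptor that directs CDT1 to degradation, differed by -0.48 in si_CSNK2B (edgeR adjusted p = 0.0725) and 0.05 in si_P300. The chromatin assembly factor subunits CHAF1A and CHAF1B stood at -0.20 and -0.04 in si_CSNK2B and at 0.28 and 0.17 in si_P300, without passing.

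The direct comparison of si_CSNK2B with si_P300 tests whether the 2 knockdowns differed. By edgeR 0 of the 46 genes passed, with 0% of all 13129 tested genes called, and by DESeq2 0 of the 46 genes and 8 of all tested genes passed. The estimates leaned 1 way: 45 of the 46 log2 fold changes were below 0, meaning lower in si_CSNK2B, against 53.7% of all tested genes, with a median of -0.26 against -0.02 over all tested genes. At an unadjusted p under 0.05 stood 19 of the 46 genes, all lower in si_CSNK2B, against 661 of all tested genes (5.03%). For 11 of the 46 genes every si_CSNK2B library lay below every si_P300 library, against 3.83% of all tested genes. The lowest p values were those of MCM5 at -0.53 (95% interval -0.84 to -0.22), MCM2 at -0.58 (-0.93 to -0.22) and POLA1 at -0.56 (-0.91 to -0.22), each with an edgeR adjusted p of 0.946. For GMNN the difference was 0.00 (-0.26 to 0.27) and for CDC6 -0.22. The 46 genes shift together from library to library, as the medians by library show, so their common direction is not 46 separate observations. The genes called in si_P300 alone or in si_CSNK2B alone are therefore not shown to differ between the knockdowns.

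Other genes of the same processes were read beside the shares of all tested genes, of which 16.2% rose and 17.8% fell in si_CSNK2B and 13.6% rose and 14.7% fell in si_P300. Of 40 other replication genes, 5 rose and 7 fell in si_CSNK2B and 9 rose and 3 fell in si_P300. The called share was 30.0% in both comparisons, near that of all tested genes (34.0% in si_CSNK2B and 28.3% in si_P300), and the median log2 fold change was 0.03 in si_CSNK2B and 0.13 in si_P300, against 0.04 over all tested genes in both. TICRR, which recruits CDC45, rose by 0.65 in si_CSNK2B and 0.72 in si_P300, and RECQL4, a helicase of replication initiation, by 0.59 in si_CSNK2B and 0.65 in si_P300. The histone chaperone NASP rose by 0.54 in si_CSNK2B and 0.48 in si_P300, the polymerase delta subunit POLD3 by 0.48 in si_CSNK2B, and the alternative clamp loader subunit CHTF18 by 0.61 in si_P300. DNA topoisomerase TOP1 fell by 0.48 in si_CSNK2B and 0.43 in si_P300, and the MCM binding protein MCMBP by 0.59 in si_CSNK2B and 0.44 in si_P300. RNASEH2B, a subunit of ribonuclease H2, fell by 0.62 and the polymerase delta subunit POLD4 by 0.64 in si_CSNK2B. RBBP4, a histone chaperone of chromatin assembly, read 164, 154 and 146 CPM in si_CSNK2B, 83.0, 61.6 and 101 CPM in si_P300, and 137, 139 and 142 CPM in NC. Its si_P300 libraries lay below all others, and it fell by 0.77 ± 0.149 in si_P300 (edgeR adjusted p = 0.00301).

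Of 16 other E2F and pocket protein genes, 3 rose and 4 fell in si_CSNK2B and 2 rose and 2 fell in si_P300, or 7 of 16 called in si_CSNK2B and 4 of 16 in si_P300, with medians of 0.08 in si_CSNK2B and 0.05 in si_P300. E2F5 fell by 0.56 in si_CSNK2B and 0.67 in si_P300, and E2F6, a repressor, by 0.48 in si_CSNK2B and 0.32 in si_P300. RBL1, the pocket protein p107, fell by 0.76 and the repressor E2F7 by 0.65 in si_CSNK2B. E2F8, another repressor, rose by 0.53 in si_CSNK2B and 0.48 in si_P300, the ubiquitin ligase receptor SKP2 by 0.49 and RBL2, the pocket protein p130, by 0.29 in si_CSNK2B, and cyclin E1 (CCNE1) by 0.71 in si_P300. RB1 itself differed by -0.20 in si_CSNK2B (edgeR adjusted p = 0.117) and -0.11 in si_P300 (edgeR adjusted p = 0.429).

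Of 34 other nucleotide synthesis genes, 3 rose and 6 fell in si_CSNK2B and 4 rose and 4 fell in si_P300, or 26.5% called in si_CSNK2B and 23.5% in si_P300, below the shares of all tested genes. The largest of these changes were in folate one-carbon metabolism, which supplies carbon to purines and thymidylate. MTHFD2, its mitochondrial dehydrogenase, read 210, 220 and 143 CPM in si_CSNK2B, 350, 251 and 302 CPM in si_P300, and 871, 890 and 1008 CPM in NC, and fell by 2.27 ± 0.174 in si_CSNK2B (edgeR adjusted p = 4.9e-06) and by 1.62 ± 0.170 in si_P300 (edgeR adjusted p = 6.24e-05). SHMT2, the mitochondrial serine hydroxymethyltransferase, fell by 1.68 ± 0.161 in si_CSNK2B (edgeR adjusted p = 2.24e-05) and by 1.40 ± 0.160 in si_P300 (edgeR adjusted p = 0.000105). The purine enzymes GART and ADSL fell by 0.70 and 0.45 in si_CSNK2B and by 0.54 and 0.42 in si_P300. NME1, a nucleoside diphosphate kinase, rose by 0.73 in si_CSNK2B and 0.64 in si_P300, the cytosolic SHMT1 by 0.38 in si_CSNK2B and 0.48 in si_P300, and IMPDH1, of guanine nucleotide synthesis, by 0.31 in si_CSNK2B and 0.33 in si_P300. SAMHD1, which degrades dNTPs, rose by 0.54 in si_P300.

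Of 22 mitosis genes, 10 rose and 0 fell in si_CSNK2B and 13 rose and 0 fell in si_P300, with median log2 fold changes of 0.47 in si_CSNK2B and 0.60 in si_P300, against 0.04 over all tested genes in both. The share that rose was 45.5% in si_CSNK2B and 59.1% in si_P300, beside 16.2% of all tested genes in si_CSNK2B and 13.6% in si_P300. The kinesin KIF20A rose by 1.33 ± 0.191 in si_CSNK2B (edgeR adjusted p = 0.000336) and by 1.22 ± 0.190 in si_P300 (edgeR adjusted p = 0.000820), and the checkpoint kinase BUB1 by 0.93 in si_CSNK2B and 0.99 in si_P300. The mitotic activator CDC20 rose by 0.86 and BUB1B by 0.69 in si_CSNK2B, and BUB1B by 0.76 and the survivin gene BIRC5 by 0.61 in si_P300. In the direct comparison of si_CSNK2B with si_P300 none of the genes in these 4 lists passed.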

How the data were processed

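RNA was measured in 9 libraries, 3 for each group, per the labels as single-end reads of 50 bp from the BGISEQ platform. HISAT, Bowtie2 and the build GRCh38.p13 are named in the submitters' processing notes, without roles. The counting tool, the annotation, the strand setting and any filter are not given in the sources used here. The columns headed as read counts hold mostly values that are not whole, and were taken for expected counts that the authors estimated and deposited without scaling. The FPKM columns were made by the authors, per the file headers, and scale for gene length and depth. Another 18 columns of single libraries (TPM and normalized counts) and 12 columns of group averages were not used.

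These counts were rounded and fitted in R 4.3.3 with edgeR 4.0.16: filterByExpr with a minimum count of 10, TMM factors, and 1 quasi-likelihood model over the 9 libraries with 3 contrasts. Tests were two-sided with Benjamini-Hochberg adjustment over the 13129 tested genes of a contrast. Each SE was derived from the fold change and its F statistic, for 95% intervals. With 3 libraries against 3 the smallest exact two-sided permutation p is 0.1. By library, 0 counts leave room for at most 0.165 to 0.223 CPM (a limit of 3 counts), counting error alone considered. The labels do not say whether replicates came from separate cultures. Each p-value therefore sets a group difference against the spread between these libraries, whatever its source. That spread was estimated over all 9 libraries and drawn toward that of other genes. No 2 libraries of the same group were duplicates, and pairs across groups were not checked.

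The 46 genes and the other lists were chosen with earlier results of these data known. All called members are named. Values per library are given for members called in both comparisons with NC, for the 6 lowest p in each, and for the lowest p of each role, and MCM2, MCM6, RBBP4 and MTHFD2 were added after their values were seen. Up to 4 called genes per direction, comparison and other list are named. CDC45 is named as the nearest miss. Correlations of deviations were -0.29 to 0.06 between libraries of the same replicate number and -0.19 to 0.26 between libraries of different numbers. With deviations taken within groups of 3, this does not settle whether libraries of the same number were handled together. Alternatives were DESeq2 1.42.0, RLE factors, no composition factor (library sizes alone), omitting the filter, a filter at 1 CPM in 3 libraries with a mean of 50 counts, only the 6 libraries compared, a replicate block, limma 3.58.1 on log2(FPKM + 1) with and without a filter at 1 FPKM and on log2(FPKM + 0.1), an adjusted p under 0.01, and each library left out in turn. Positions are from GENCODE 29 on GRCh38. Of the 46 genes, 21 share exon positions with another gene and 7 have a pseudogene named after them. Besides the called genes named above with this limit, POLD1 and POLA2 share them on the same strand. RPA1, LIG1, RRM1 and CLSPN share them on the opposite strand, and PCNA has 3 such pseudogenes. Promoter windows are from RefSeq on GRCh38.p14. Figures were drawn with matplotlib 3.10.9 in Python 3.11.15.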

Additional observations from a re-analysis of the deposited data

How the results depend on the processing

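No log2 fold change of a called member changed sign under any of the 17 alternatives run in each comparison with NC. CDC6, GMNN, CLSPN, POLA1, RFC2 and RFC4 in si_CSNK2B, and CDC6, GMNN, CLSPN, E2F2, ORC1, MCM4, POLA2, FEN1, UHRF1, LIG1, POLD1 and POLE in si_P300, passed in all 17. Members called higher in si_CSNK2B against NC numbered 5, but 15 with library sizes alone, 14 with limma on log2(FPKM + 1), 15 on log2(FPKM + 0.1), 10 on log2(FPKM + 1) without a filter and 2 at an adjusted p under 0.01. Of all genes tested in these 5 fits, 38.2%, 39.9%, 40.1%, 24.9% and 19.2% were called in either direction. The FPKM fits use no composition factor either. Leaving out 1 library gave 3 (without NC replicate 2 or 3) to 10 (without si_CSNK2B replicate 3). The shares of all tested genes called in either direction were then 25.8%, 22.0% and 26.3%. Members called lower in si_CSNK2B numbered 6, and 4 to 11 with 1 library left out, the highest without si_CSNK2B replicate 1. Those fits called 22.0% to 30.3% of all genes tested in them, against 34.0% with all libraries. In si_P300, members called higher numbered 16, and 11 to 15 with 1 library left out, the lowest without NC replicate 3. Members called lower numbered 1, and 1 to 2, the higher without si_P300 replicate 1, which added RFC4. The share of all genes tested in those fits that was called ran from 16.4% without NC replicate 3 to 29.3% without si_P300 replicate 1. It was 28.3% with all libraries. The median of the members in si_P300 was 0.385 with library sizes alone. Over all genes, 2124 were called higher in si_CSNK2B and 1783 higher in si_P300. With fewer samples these were 1324 in si_CSNK2B and 962 in si_P300 without NC replicate 1, 1048 in si_P300 without NC replicate 2, and 1238 in si_CSNK2B and 890 in si_P300 without NC replicate 3. With library sizes alone they were 3316 in si_CSNK2B and 2760 in si_P300, and at an adjusted p under 0.01 they were 1029 in si_CSNK2B and 746 in si_P300. In the direct comparison members called stayed at 0 under every alternative.

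The replicate block pairs libraries by their replicate number, a pairing that the labels do not state. It gave 11 members in si_CSNK2B, with DTL added and POLD1 lost, 17 in si_P300 and 0 in the direct comparison. Of all tested genes it called 29.2% in si_CSNK2B, 22.9% in si_P300 and 0% in the direct comparison.

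The intervals of genes that did not pass, such as -0.50 to 0.18 for E2F1 in si_CSNK2B, allow changes as large as some that passed.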
